A study of Mus musculus with 10 samples.

Results

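The subject is 10 genes for chemokines and cytokines that fibroblasts secrete: Ccl2, Ccl7, Cxcl1, Cxcl5, Cxcl12, Cx3cl1, Il6, Il11, Lif and Csf1. The set is a list of names, with no threshold on a measured value, and was matched by Ensembl identifier to 10 of the 26401 genes in the count table. Polyadenylated RNA was sequenced from 10 clones of immortalized mouse embryonic fibroblasts (MEF), cells grown from embryo connective tissue and adapted to grow without limit. All 10 clones carried the mitochondrial DNA change m.5024C>T, a C-to-T change in the gene for the mitochondrial alanine tRNA, and the labels name C57Bl/6N. Mutant and normal mitochondrial genomes coexist in such cells, a state called heteroplasmy. In 5 clones the mutant share was high (here high 1 to high 5, by the labels' replicate numbers) and in 5 it was low (low 1 to low 5). The labels give neither the mutant share of a clone nor how the clones were derived. All were grown untreated in high-glucose DMEM with 10% serum and 50 µg/ml uridine, and no cytokine or inflammatory stimulus is named. Each group is thus 5 clones with 1 library each, so a p-value measures the spread between clones. No wild-type clone was compared.

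Chemokines are small secreted proteins that direct the movement of white blood cells through receptors on their surface, and are sorted into CC, CXC and CX3C classes by the spacing of their first cysteines. Interleukin 6, interleukin 11 and LIF form a cytokine family that signals through the shared receptor chain gp130 (Il6st) to JAK kinases and STAT3. Csf1 is the growth factor that keeps macrophages alive. In fibroblasts many of these genes are switched on by NF-kB, AP-1 and C/EBP factors after signals such as interleukin 1 or TNF, and several of their mRNAs are short-lived because of AU-rich elements in the 3′ untranslated region (UTR).

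Library totals ran from 17318372 to 28208576 counts. Levels are CPM, the usual depth-scaled counts, with library sizes adjusted by TMM factors. Of 15 fibroblast markers, 15 were in the count table and 13 passed the expression filter. They summed to 12171 to 14145 CPM in the low and 10374 to 20720 CPM in the high libraries. Vim and Col1a1 were at means of 6236 and 4781 CPM in the low group and 7242 and 5638 CPM in the high group, whereas Lum was nearly absent (0.0202 and 0 CPM). Ptprc, the defining surface gene of white blood cells, had 0 counts in all 10 libraries, and so did the endothelial gene Cdh5. Of 15 macrophage and monocyte markers, 10 were in the count table and 2 passed the expression filter. They summed to 25.6 to 41.4 CPM in the low and 21.2 to 95 CPM in the high libraries, nearly all of it Cd68 and Cd14. Of 4 measured neutrophil markers, 1 passed the filter, with sums of 0.217 to 3.1 CPM in the low and 0 to 0.762 CPM in the high libraries. Lymphocyte markers summed to 5.87 to 13.7 CPM in the low and 3.71 to 5.29 CPM in the high libraries, endothelial markers to 5.94 to 16.4 CPM in the low and 15.2 to 24.6 CPM in the high libraries, and smooth muscle and pericyte markers to 104 to 201 CPM in the low and 84.6 to 276 CPM in the high libraries. The 9 adipocyte markers in the table summed to 22.1 to 37.6 CPM in the low and 91 to 287 CPM in the high libraries, with 3 of 3 tested members called higher in the high group and Adipoq at 0 counts in 9 of 10 libraries. Epithelial markers summed to 454 to 672 CPM in the low and 113 to 509.6 CPM in the high libraries. Of 4 tested by edgeR 1 rose, 0 fell and 4 had an unadjusted p under 0.05 (1 higher, 3 lower in the high group). The gene that rose was Krt18 (0.477 ± 0.12 CPM to 119 ± 120.0 CPM), while Krt19, the most abundant, was at 563 ± 84.9 CPM and 214 ± 130.2 CPM (edgeR adjusted p = 0.0509). DESeq2, which tests genes with lower counts too, called 5 of the list and limma-voom 1. Over all tested genes edgeR called 4.86% and 21.6% had an unadjusted p under 0.05, while DESeq2 called 10.3% and limma-voom 5.3%. The part of adipocyte and epithelial genes in the results below was not tested. Low 2 and low 3 stood apart by the ribosomal RNA-like transcript Gm42418 (40941 and 8017 CPM, against 745 to 1616 CPM in the other 8 libraries), and key results are given without them. In bulk RNA a smaller number of cells that make a transcript and less RNA per cell cannot be told apart.

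High and low heteroplasmy were compared to ask whether the secreted inflammatory and growth signals of these fibroblasts differ with the load of the mutation. Lif was lower in the high clones and was the 1 gene of the 10 that passed the test. Ccl2 was lower and Cxcl12 higher by larger or similar folds, but neither passed, and both ranged widely among clones of 1 group. Ccl7, Il11 and Csf1 had nearly equal means in both groups, while Cxcl1, Il6 and Cx3cl1 lay further apart without passing. Of the 10 genes 9 were tested and Cxcl5 fell below the expression filter. With edgeR's quasi-likelihood test and Benjamini-Hochberg adjustment over 12964 genes (threshold 0.05), 1 of 9 fell and 0 rose. In the background of all tested genes, 2.87% fell, 1.99% rose and 4.86% were called in either direction. At an unadjusted p under 0.05 there were 3 of 9, against 21.6% of all tested genes. None of the 9 had groups that did not overlap, which was the case for 7.17% of all tested genes. Their median log2 fold change, high over low, was -0.11, beside 0.02 for all tested genes. DESeq2, run as an alternative, called 3 of the 10 (Lif, Ccl2 and Cxcl12), where it called 10.3% of its tested genes. The limma-voom alternative called 1 (Lif), with 5.3% of all genes. At an edgeR threshold of 0.1 the same 3 as with DESeq2 passed, with 9.84% of all genes. Without low 2 and low 3 edgeR called 0 of the 9, and only 56 genes in all, against 630 with them. The log2 fold changes in that fit were -1.70, adjusted p = 0.241 for Ccl2 and 3.99, adjusted p = 0.274 for Cxcl12. With the median shift of each chromosome taken out per library, 85 genes rose and 79 fell, against 258 and 372 without it.

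**Figure D1:**
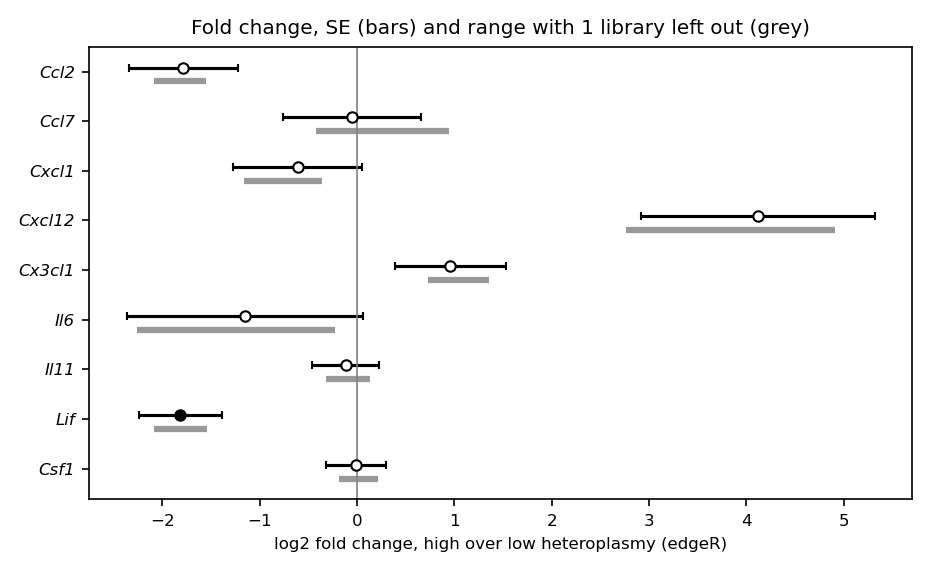
Log2 fold change of high over low heteroplasmy (x axis) for the 9 tested genes (y axis), with points for edgeR estimates, black bars for 1 SE and grey bars for the range when 1 library was left out. The point of Lif at -1.82 is filled as the 1 call, Cxcl12 is farthest from 0 at 4.12 with an SE of 1.20, and the grey bars of Ccl7, Il11 and Csf1 cross 0.

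Lif encodes leukaemia inhibitory factor, the gp130 cytokine known for holding mouse embryonic stem cells in an undifferentiated state (ENSMUSG00000034394, chromosome 11, 4257557 to 4272514, plus strand, GRCm38). Lif was at 40.2, 42.3, 26.7, 64.3 and 16.9 CPM in low 1 to low 5 and 18.2, 7.26, 4.09, 11.7 and 12.8 CPM in high 1 to high 5. Every high clone lay below the low median of 40.2 CPM, but the groups overlapped at 1 point, since high 1 was above low 5. Lif fell from 38.1 ± 17.9 CPM to 10.8 ± 5.43 CPM (SD, n = 5 clones each), a mean that was 3.52 times as high in the low group (edgeR log2 fold change -1.82, SE 0.43, adjusted p = 0.0369). The size of this fall was steady and its call was not. The log2 fold change stayed between -2.08 and -1.54 in the 10 fits that left out 1 clone, with edgeR adjusted p values of 0.0279 to 0.0799. It passed without low 5 and without high 1, 2 of these 10, and was lost when another clone was omitted. The edgeR adjusted p was 0.0731 with low 1 omitted, 0.0799 for low 2, 0.0597 for low 3, 0.0796 for low 4, 0.0782 for high 2, 0.0635 for high 3, 0.0516 for high 4 and 0.0611 for high 5. Without low 2 and low 3 the log2 fold change was -1.89, adjusted p = 0.131 (edgeR). The call was also lost with no expression filter (-1.81, adjusted p = 0.0506), with the sample code number as a block (-1.72, adjusted p = 0.124) and with the chromosome shifts taken out (-1.86, adjusted p = 0.0591). The sample code number is the number after the letter in a library's code in the labels. The number of genes called in all, 630 in the main fit, was 496, 479 and 164 in these settings, in that order. Without low 1, low 2, low 3 or low 4 it was 236 to 270, and over all 10 fits that left out 1 clone 232 to 821. Without low 2 and low 3 it was 56.

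Il6 encodes interleukin 6, the founding gp130 cytokine and a typical product of NF-kB activity in fibroblasts (ENSMUSG00000025746, chromosome 5, 30013114 to 30019981, plus strand). Il6 RNA was scarce, with 208 counts over the low and 91 over the high group. Il6 was at 0.57, 0.489, 2.81, 5.4 and 0 CPM in low 1 to low 5 and 2.69, 0.86, 0.303, 0.398 and 0 CPM in high 1 to high 5. It was listed at 0 counts in low 5 and in high 5, where 3 counts, the limit that a count of 0 allows, would be 0.163 and 0.0998 CPM. Low 4, low 3 and high 1 were the clones with the most. The groups overlapped over most of their range and the difference did not pass (edgeR log2 fold change -1.15, SE 1.21, adjusted p = 0.64). Il11 encodes interleukin 11, a gp130 cytokine linked to fibrosis (ENSMUSG00000004371, chromosome 7, 4772373 to 4782859, minus strand). Il11 was at 1.08, 2.17, 1.41, 1.3 and 0.817 CPM in low 1 to low 5 and 1.07, 0.903, 1.93, 1.15 and 1.2 CPM in high 1 to high 5. With 15 to 51 counts per library it was scarce too. It was the steadiest of the 8 genes with counts in every library, with a 2.66-fold range between its lowest and highest clone, and its groups had almost the same mean (edgeR log2 fold change -0.11, SE 0.34, adjusted p = 0.893).

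Of the 8 receptor genes of this family and of Csf1, 5 passed the filter and edgeR called 0. Their median log2 fold change was 0.48, 3 had an unadjusted p under 0.05, DESeq2 called 1 and limma-voom 0. Over all tested genes, 21.6% had an unadjusted p under 0.05, and edgeR, DESeq2 and limma-voom called 4.86%, 10.3% and 5.3%. Il6st, the shared gp130 chain, was at 109.6 ± 20.2 CPM in the low and 157 ± 47.3 CPM in the high clones (edgeR log2 fold change 0.52, adjusted p = 0.187). Lifr, the specific chain for LIF, was at 17.2 ± 5.77 CPM and 20.9 ± 17.5 CPM. Il6ra, which binds interleukin 6, was at 27.8 ± 4.69 CPM and 16.4 ± 6.13 CPM (edgeR log2 fold change -0.77, adjusted p = 0.108). Il11ra1, the interleukin 11 receptor, was at 33.2 ± 3.6 CPM and 67 ± 33 CPM (edgeR log2 fold change 1.02, adjusted p = 0.0824), and it has a near-identical copy in the mouse genome, so its count is uncertain. RNA counted to receptor genes for all 3 gp130 ligands was thus found in both groups, with that of Il11ra1 uncertain. Receptor protein was not measured. Csf1r, the receptor for Csf1, was at 0.0114 and 0.0597 CPM, too low to compare.

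Ccl2 encodes the CC chemokine that draws monocytes through the receptor Ccr2 (ENSMUSG00000035385, chromosome 11, 82035571 to 82037453, plus strand). Ccl2 was at 366, 171, 389.8, 317 and 61.1 CPM in low 1 to low 5 and 133, 92, 43.9, 90.3 and 19.9 CPM in high 1 to high 5. Low 1, low 3 and low 4 were far above every high clone and low 2 was above them too, but low 5 lay below high 1, high 2 and high 4. The means were 261 ± 140.4 CPM and 75.8 ± 44.4 CPM (SD, n = 5 clones each), and the low mean was 3.45 times the high mean. The difference missed the threshold (edgeR log2 fold change -1.79, SE 0.56, adjusted p = 0.0933), although its log2 fold change was between -2.09 and -1.55 in all alternatives run. DESeq2 called it (log2 fold change -1.79, adjusted p = 0.00895) and limma-voom did not (-1.80, adjusted p = 0.104).

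Ccl7 encodes a closely related monocyte chemokine and starts 8258 bases after the end of Ccl2 on the same strand (ENSMUSG00000035373, chromosome 11, 82045712 to 82047525, plus strand). Ccl7 was at 11.3, 29.3, 104, 22.6 and 6.42 CPM in low 1 to low 5 and 36.3, 28.2, 31.4, 63.6 and 8.19 CPM in high 1 to high 5. As for Ccl2, low 3 was the highest of the low clones, and low 5 and high 5 were the lowest of their groups. Low 1, among the highest clones for Ccl2, was among the lowest for Ccl7, and high 4 was second to low 3. The group means were 34.8 ± 40.0 CPM and 33.5 ± 19.9 CPM (edgeR log2 fold change -0.06, SE 0.71, adjusted p = 0.978). This value rests on low 3, without which the log2 fold change turned to 0.94 (edgeR adjusted p = 0.421). The next chemokine genes of this cluster on chromosome 11 were nearly silent. Ccl8 was at 0.762 and 0.069 CPM, Ccl11 and Ccl12 at no more than 0.0109 CPM, and Ccl1 had 0 counts in all libraries.

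Cxcl1 encodes a CXC chemokine that draws neutrophils through Cxcr2 (ENSMUSG00000029380, chromosome 5, 90891241 to 90893115, plus strand). Cxcl1 was at 64.7, 17.1, 61.1, 44.9 and 10.9 CPM in low 1 to low 5 and 40.8, 58.7, 7.3, 15.7 and 7.99 CPM in high 1 to high 5. Low 1, low 3 and high 2 were the highest, while low 5, high 3 and high 5 were the lowest, so both groups spanned almost the whole range. The means were 39.7 ± 24.7 CPM and 26.1 ± 22.7 CPM (edgeR log2 fold change -0.61, SE 0.66, adjusted p = 0.655). Cxcl5 encodes another ligand of Cxcr2 (ENSMUSG00000029371, chromosome 5, 90759360 to 90761624, plus strand). Cxcl5 had 28 counts over the low and 49 over the high group, and was at 0.285, 0, 0.563, 0.251 and 0.272 CPM in low 1 to low 5 and 0.356, 1.63, 0.0378, 0.119 and 0 CPM in high 1 to high 5. High 2 alone exceeded 1 CPM, and a two-sided exact permutation test of CPM over the 10 libraries gave p = 0.881 (n = 5 each). Cxcl5 and Cxcl1 lie 129616 bases apart in 1 cluster on chromosome 5. Its other chemokine genes were low as well, with Ppbp at 0.709 and 2.14 CPM, Cxcl2 at 0.0958 and 0.119 CPM, and Cxcl3, Pf4 and Cxcl15 below 0.128 CPM or at it in each group mean. Ppbp was highest in high 2 (6.71 CPM), the clone that was also highest for Cxcl5.

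Cxcl12 encodes the CXC chemokine of stromal cells that holds blood stem cells and lymphocytes in their niches through Cxcr4 (ENSMUSG00000061353, chromosome 6, 117168535 to 117181367, plus strand). Cxcl12 was at 3.76, 6.08, 6.75, 0.92 and 20.4 CPM in low 1 to low 5 and 14.7, 452, 117, 69 and 3.76 CPM in high 1 to high 5. High 2, high 3 and high 4 were above all low clones, whereas high 5 was at the level of low 1 and high 1 lay below low 5. From the lowest clone, low 4, to the highest, high 2, the range was 491-fold, the widest of the 8 genes with counts in every library. The means were 7.58 ± 7.5 CPM and 131 ± 185 CPM (SD, n = 5 clones each), and the SD of the high group exceeded its mean. The difference did not pass (edgeR log2 fold change 4.12, SE 1.20, adjusted p = 0.0757). Without high 2 the log2 fold change was 2.76, adjusted p = 0.157, and without high 5 it passed (4.43, adjusted p = 0.0476, edgeR). Genes of chromosome 6 as a whole deviated by medians of -0.04 to 0.45 in the high and -0.14 to -0.06 in the low libraries (log2), and with that shift taken out per library Cxcl12 was at 3.81, adjusted p = 0.133. Of its receptors, Cxcr4 was nearly absent (0.0326 and 0.0159 CPM), and the scavenging receptor Ackr3 was at 17.1, 9.72, 14.1, 16.4 and 5.77 CPM in low 1 to low 5 and 0.711, 9.59, 0.605, 4.37 and 0.499 CPM in high 1 to high 5. Ackr3 was the 1 chemokine receptor of 17 measured that passed the filter. Its difference missed the edgeR threshold (log2 fold change -2.0, adjusted p = 0.175) and passed by DESeq2 (-2.0, adjusted p = 0.0436) and limma-voom (-2.93, adjusted p = 0.0374).

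Cx3cl1 encodes fractalkine, a chemokine made as a membrane protein that binds Cx3cr1 on monocytes and microglia (ENSMUSG00000031778, chromosome 8, 94772009 to 94782427, plus strand). Cx3cl1 was at 25.5, 3.04, 22, 10.0 and 3.92 CPM in low 1 to low 5 and 17.9, 32.5, 36.4, 12.2 and 26.5 CPM in high 1 to high 5. Every high clone was above the low median of 10.0 CPM, yet low 1 and low 3 were higher than high 1 and high 4. The difference did not pass (edgeR log2 fold change 0.96, SE 0.57, adjusted p = 0.363). Cx3cl1 lies on chromosome 8, whose genes deviated by medians of -0.50 to -0.15 in the high and 0.17 to 0.42 in the low libraries (log2), the opposite direction, and with that shift taken out it was at 1.54, adjusted p = 0.207 (edgeR). Csf1, the macrophage growth factor, had the second highest mean of the 10 genes in CPM in the low group and the highest in the high group (ENSMUSG00000014599, chromosome 3, 107741048 to 107760469, minus strand). Csf1 was at 134, 223, 341, 275 and 105 CPM in low 1 to low 5 and 189, 236, 141, 269.7 and 234 CPM in high 1 to high 5. The 5 high clones fell inside the range of the 5 low clones, and the means of 216 ± 97.8 and 214 ± 49.7 CPM were nearly equal (edgeR log2 fold change -0.01, SE 0.31, adjusted p = 0.991). Each overlap of these genes with another gene of the count table was checked: Ccl2 overlaps Gm17268 on the other strand, which had 0 counts, and the other 9 overlap none.

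**Figure D2:**
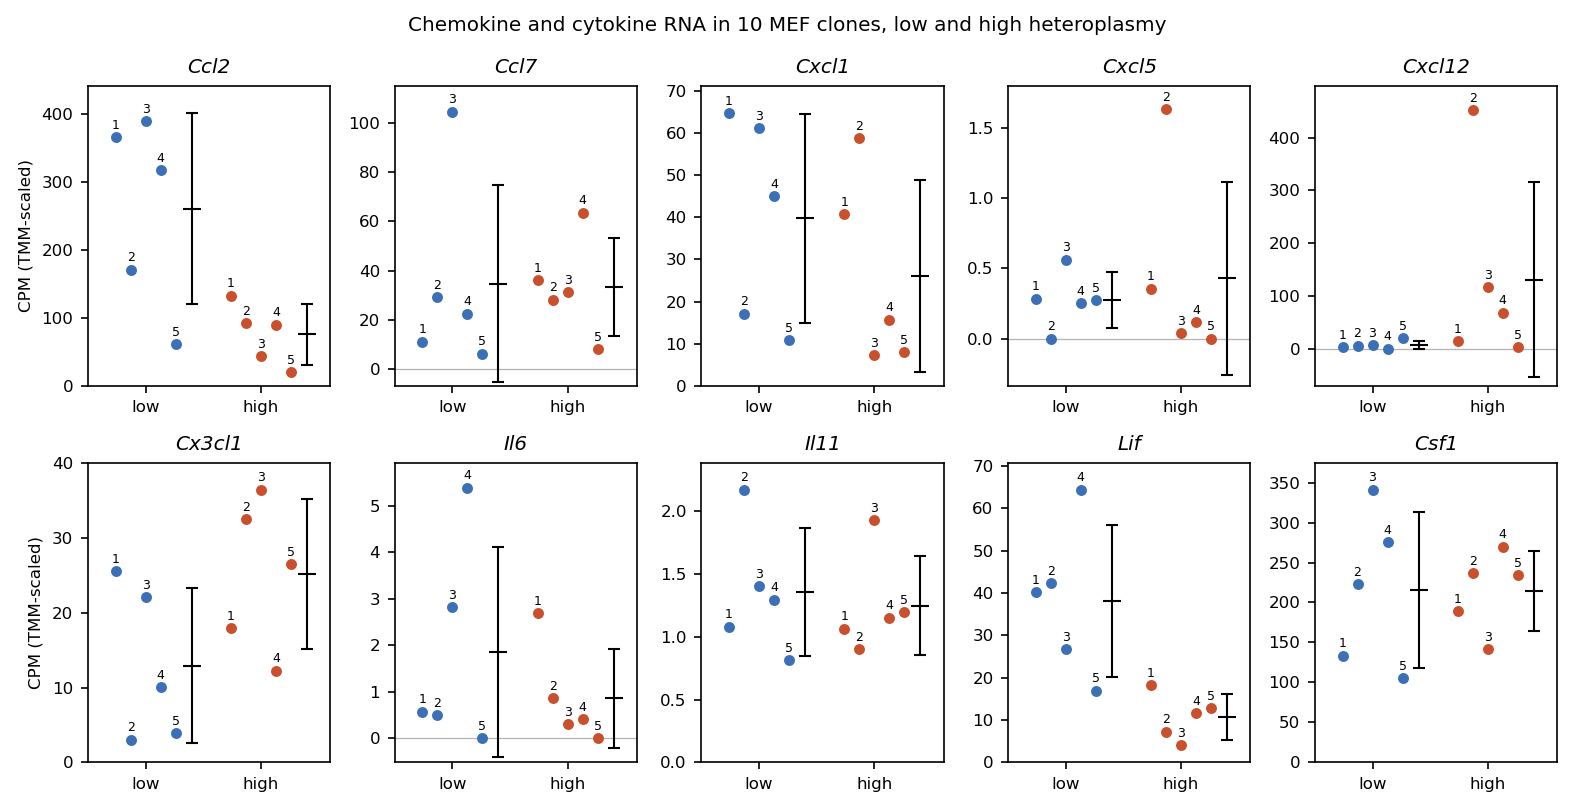
CPM (y axis, scale set per gene) of the 10 genes in the low and high heteroplasmy clones (x axis), with a point per clone labelled by its replicate number and black marks for the mean and SD of 5 clones. Low 5 and high 5 are at or near the bottom for Ccl2, Ccl7, Cxcl1 and Il6, and high 2 stands alone for Cxcl12 and Cxcl5.

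Levels were compared between genes per kilobase of exon (RPKM, the CPM divided by the exon length of the gene in kilobases). That length is the union of exons over all annotated transcripts of a gene, such as 1875 bases for Cxcl1 and 8176 for Cxcl12. It can exceed the length of the transcript made, to an extent that differs between genes. The order and percentiles below depend on it. In the low clones Ccl2 led with a mean of 229 RPKM, followed by Ccl7 (43.5), Csf1 (40.8), Cxcl1 (21.2), Lif (8.76) and Cx3cl1 (3.29 RPKM). Cxcl12 (0.927), Il6 (0.764), Il11 (0.651) and Cxcl5 (0.147 RPKM) were below 1. In the high clones Ccl2 (66.6), Ccl7 (41.9) and Csf1 (40.5) were still the top genes, and Cxcl12 (16.1) came next, ahead of Cxcl1 (13.9), Cx3cl1 (6.39) and Lif (2.49 RPKM). The place of Cxcl12 rests on high 2. Without it, a comparison chosen after seeing the data, Cxcl12 was at 6.25 RPKM, below Cxcl1 at 9.57 (n = 4). Given the SDs above, the order of neighbours, such as Ccl7 and Csf1 or Cxcl12 and Cxcl1 in the high clones, is uncertain. No test was run between genes, which were measured in the same clones. Among all tested genes, the mean RPKM of Ccl2 was at the 97.4 percentile, that of Ccl7 at 88.8 and that of Csf1 at 88.2, whereas Il6 was at 8.76 and Il11 at 9.9.

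Variation between clones of 1 group was large for most of the 10 genes. The SD of log2 CPM within groups, averaged over both groups, had a median of 1.11 over the 9 tested genes and of 0.36 over all tested genes. All 9 lay above the latter value, and 6 of 9 lay above the 90th percentile of all tested genes. Cxcl12 (2.12) and Il6 (2.09) varied most and Il11 (0.43) and Csf1 (0.54) least. These are descriptions without a test. The spread also differed by group for single genes. That of Cx3cl1 was 1.38 in the low and 0.65 in the high clones, and that of Cxcl12 was 1.58 and 2.67, with the difference not tested.

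Whether clones rich in 1 of these transcripts were rich in the others was asked for the 36 pairs of the 9 tested genes. Ccl2, Cxcl1 and Il6 tended to run together: low 3, low 4 and high 1 ranked in the upper 5 and low 5, high 3 and high 5 were the lowest for all 3. No pair passed by Pearson correlation after adjustment over the 36 (7 at an unadjusted permutation p under 0.05), and 1 pair passed by Spearman correlation. For Ccl2 and Cxcl1 over 10 libraries, Pearson r = 0.83 (permutation p = 0.00389, adjusted p = 0.070) and Spearman rho = 0.89 (permutation p = 0.00123, adjusted p = 0.0443). Without the 2 libraries farthest from the Ccl2 median r was 0.75, and with values centred within each group it was 0.87 (exact permutation within groups, adjusted p = 0.0425). For Ccl2 and Il6, Pearson r = 0.80 (permutation p = 0.00614, adjusted p = 0.0737) and Spearman rho = 0.83 (permutation p = 0.00482, adjusted p = 0.0868). Its r was 0.62 without the 2 libraries farthest from the Ccl2 median and 0.89 within groups (exact permutation adjusted p = 0.0425). Il6 had 0 counts in low 5 and high 5, which were also among the lowest for Ccl2 and Cxcl1. Its log2 CPM there, -3.20 and -3.91, was set by the prior count and the library size. The r values of Il6 therefore rest in part on this floor, and r without both clones was not computed. For Cxcl1 and Il6, Pearson r = 0.78 (permutation p = 0.00939, adjusted p = 0.0845) and Spearman rho = 0.78 (permutation p = 0.0113, adjusted p = 0.102), and r was 0.72 without the 2 libraries farthest from the Cxcl1 median and 0.76 within groups (exact permutation adjusted p = 0.217). For the neighbours Ccl2 and Ccl7, Pearson r = 0.42 (permutation p = 0.232, adjusted p = 0.683) and Spearman rho = 0.32 (permutation p = 0.368, adjusted p = 0.70). Its r was -0.13 without low 3 and high 5, the 2 libraries farthest from the Ccl2 median, and 0.70 within groups (exact permutation p = 0.0438, adjusted p = 0.27). Cxcl12 and Lif ran in opposite directions over the 10 libraries, with Pearson r = -0.85 (permutation p = 0.00239, adjusted p = 0.070) and Spearman rho = -0.79 (permutation p = 0.00936, adjusted p = 0.102). Its r was -0.76 without high 2 and high 3, and -0.74 within groups (exact permutation adjusted p = 0.247).

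**Figure D3:**
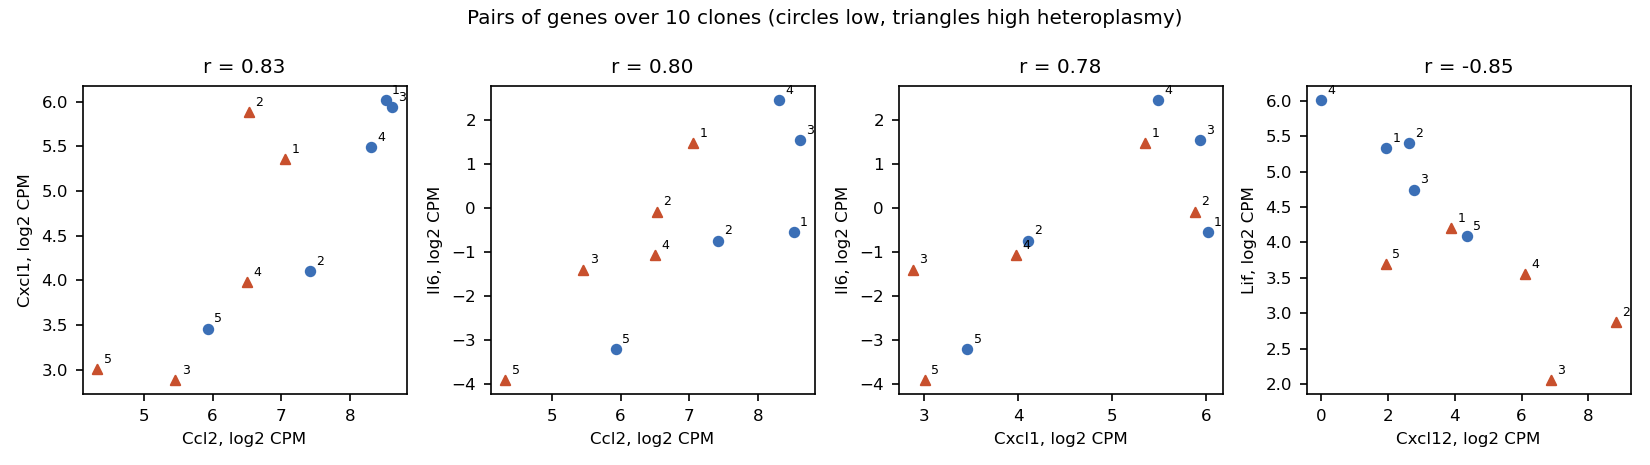
Log2 CPM of 4 pairs of genes (x and y axes) over 10 clones, with circles for low and triangles for high heteroplasmy and the replicate number beside each. Points rise from the lower left to the upper right for Ccl2, Cxcl1 and Il6 and fall for Cxcl12 against Lif (r = -0.85).

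Over the 10 libraries, and among tested genes that averaged 1 CPM or more, the 3 with the profile most like Ccl2 were Arid5a (Pearson r = 0.97), Ccl5 (0.95) and Trappc5 (0.93). Arid5a encodes an RNA-binding protein known to stabilise Il6 mRNA, and Ccl5 a chemokine induced by interferon and NF-kB. Most like Il6 were Tmem140 (0.94), Tap2 of the antigen peptide transporter (0.93) and the interferon-induced GTPase gene Gbp3 (0.91). Most like Cxcl12 were Ell2, an elongation factor gene (0.97), the matrix proteoglycan gene Fmod (0.95) and Gprc5b (0.95). These are the highest values among all the genes compared, over 10 libraries, and carry no test. They were not centred within groups, so differences between high and low clones enter them. Trappc5, on chromosome 8, was itself called lower in the high group (edgeR log2 fold change -0.78, adjusted p = 0.0497). Arid5a was at 33.6, 20.4, 39.2, 39 and 13.1 CPM in low 1 to low 5 and 19.3, 13.1, 9.42, 17.7 and 8.82 CPM in high 1 to high 5, so its lowest clones, high 5 and high 3, were also the lowest for Ccl2.

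Promoter sequence was read for the 7 of 10 genes found in the RefSeq table for GRCm38.p6 (Cxcl1, Cxcl12, Cx3cl1, Il6, Il11, Lif and Csf1), as the 250 bases before the annotated start. On either strand, a match to the 10-letter NF-kB consensus was found for Cxcl1, Il6 and Csf1, 3 of 7, and for 3.9% of 32851 promoters of the same length. The AP-1 motif TGANTCA was found for Lif, Il6 and 1 of the 2 starts of Il11, and in 6.75% of all promoters. The C/EBP motif TTGCNNAA was found for Il6 and in 9.56% of all. The promoters of Lif, as the called gene, and of Cxcl1 and Il6, which ran together across clones, are shown 5′ to 3′ on the plus strand, with the start following the last base and NF-kB and AP-1 matches in capitals. In Cxcl1 matches on both strands overlap by all but 1 base.
Lif, chr11:4257318-4257567: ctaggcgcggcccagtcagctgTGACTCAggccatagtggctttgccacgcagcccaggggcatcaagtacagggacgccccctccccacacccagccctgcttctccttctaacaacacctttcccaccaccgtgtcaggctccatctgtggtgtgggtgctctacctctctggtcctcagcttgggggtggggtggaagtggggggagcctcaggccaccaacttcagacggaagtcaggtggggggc
Cxcl1, chr5:90890995-90891244: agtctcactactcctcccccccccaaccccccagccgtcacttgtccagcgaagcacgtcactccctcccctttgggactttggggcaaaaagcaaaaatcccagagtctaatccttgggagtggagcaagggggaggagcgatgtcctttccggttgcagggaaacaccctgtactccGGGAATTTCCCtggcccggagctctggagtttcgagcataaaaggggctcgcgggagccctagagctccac
Il6, chr5:30012864-30013113: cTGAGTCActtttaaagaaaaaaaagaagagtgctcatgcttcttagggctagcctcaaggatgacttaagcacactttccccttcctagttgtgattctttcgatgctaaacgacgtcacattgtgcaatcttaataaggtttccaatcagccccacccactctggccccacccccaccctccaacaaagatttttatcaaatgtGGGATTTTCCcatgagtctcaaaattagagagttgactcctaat
A match of letters is a description of the sequence and not evidence of binding.

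The 3′ UTRs of the 10 genes were searched for ATTTA, the core of AU-rich elements, in 1 coding transcript per gene (GENCODE M21). All 10 held at least 1, as did 66.3% of 11496 tested genes. Their density was 4.07 per kilobase in the median of the 10 genes and 1.23 in that of all tested genes. Il6 had the highest density (6 in 427 bases), then Cxcl1 (7 in 592) and Il11 (10 in 1194), and Cx3cl1 the lowest (1 in 1871). The longer element TTATTTATT was in the UTRs of Cxcl1, Il11, Lif and Cx3cl1, 4 of 10, against 7.25% of tested genes. The 30 bases with the most ATTTA are shown for Lif, as the called gene, for Il6 and Cxcl1, which varied widely, and for Il11, which varied least, in mRNA sense with ATTTA in capitals.
Cxcl1, chr5:90892609-90892638, plus strand: ctATTTATTTAtgtATTTATTTAttccaca
Il11, chr7:4773491-4773520, minus strand: ttATTTATTTATTTAttttggtacttggag
Lif, chr11:4272414-4272443, plus strand: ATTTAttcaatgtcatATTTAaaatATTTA
Il6, chr5:30019689-30019718, plus strand: taATTTAttgataATTTAaataagtaaact
Whether ATTTA density goes with the spread between clones was not tested.

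Other genes of the same pathways were taken from 11 lists of ligands, receptors, signalling proteins and regulators. Of 125 tested genes in these lists, 1 rose and 6 fell (edgeR), 5.6% of them, against 4.86% of all tested genes. At an unadjusted p under 0.05 there were 44 (35.2%), against 21.6% of all tested genes. DESeq2 called 26 of the 150 it tested (17.3%, against 10.3% of all it tested), and limma-voom 8 of 125 (6.4%, against 5.3%). The median log2 fold change of the 125 was -0.19. The groups did not overlap for 8 of the 125, a share near the 7.17% of all tested genes. Among 7 other tested chemokines 2 fell and 0 rose, with a median of -0.80. Cxcl10, an interferon-induced chemokine for T cells, fell from 478 ± 493 CPM to 40.6 ± 25 CPM (SD, n = 5 each, edgeR log2 fold change -3.56, SE 0.89, adjusted p = 0.047). It was at 108.9, 219, 974, 1052 and 36.7 CPM in low 1 to low 5 and 76.9, 43.7, 22.4, 47.8 and 12.5 CPM in high 1 to high 5. Low 3 and low 4 carried most of the low mean, low 5 lay inside the range of the high clones, and of the 10 fits with 1 clone omitted it passed only in that without low 5 (edgeR adjusted p = 0.0306). In the other 9 the adjusted p was 0.0517 (without high 1) to 0.102 (without high 3). Ccl25, a chemokine of thymus and gut, fell from 11.2 ± 2.33 CPM to 4.17 ± 1.17 CPM with no overlap between the groups (edgeR log2 fold change -1.42, SE 0.26, adjusted p = 0.016). Ccl5 (log2 fold change -2.31, adjusted p = 0.11), Cxcl16 (-0.80, adjusted p = 0.234) and Ppbp (1.57, adjusted p = 0.30) did not pass by edgeR, and DESeq2 called Ccl5 (adjusted p = 0.00827). DESeq2 called 4 of the 23 genes of this list in the count table, and limma-voom 1 of the 7.

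Among 11 other tested cytokines 1 rose and 2 fell, with a median log2 fold change of -0.58. Kitl, the stem cell factor that binds the receptor Kit, was at 34, 39.5, 19.7, 32.2 and 53.8 CPM in low 1 to low 5 and 143, 189, 169, 93.3 and 197 CPM in high 1 to high 5. All high clones were above all low clones, the mean rising from 35.9 ± 12.4 CPM to 158 ± 41.9 CPM (SD, n = 5 each, edgeR log2 fold change 2.14, SE 0.28, adjusted p = 0.00346), and it passed in all 10 fits with 1 clone omitted. Il34, the second ligand of the Csf1 receptor, fell from 5.26 ± 3.81 CPM to 0.668 ± 0.284 CPM with no overlap (edgeR log2 fold change -2.97, SE 0.56, adjusted p = 0.0179). Csf1 itself, which shares that receptor, had nearly equal means, as given above. Tnfsf9, a TNF family ligand for T cells, fell from 27.3 ± 8.34 CPM to 12.1 ± 3.43 CPM, again without overlap (edgeR log2 fold change -1.17, SE 0.25, adjusted p = 0.0281). It passed in 4 of the 10 fits with 1 clone omitted (low 3, low 5, high 1 or high 4), and omitting any other gave adjusted p values up to 0.0672. Il15, a cytokine for natural killer cells, did not pass by edgeR (-2.54, adjusted p = 0.0878) and did by DESeq2 (-2.55, adjusted p = 0.00481) and limma-voom (-3.31, adjusted p = 0.0236). The gp130 ligand gene Clcf1 (0.47, adjusted p = 0.137, edgeR) did not pass. DESeq2, which tests genes with lower counts too, called 7 of the 28 genes of this list in the count table, and limma-voom 4 of the 11. Over all tested genes edgeR called 4.86%, DESeq2 10.3% and limma-voom 5.3%.

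Upstream of NF-kB, 1 of 21 tested receptors and adaptors fell and 0 rose (median 0.15). Of all tested genes edgeR called 4.86%, with 2.87% falling and 1.99% rising, so 1 call among 21 was near that share. Tlr3, the receptor for double-stranded RNA, fell from 79.4 ± 70.4 CPM to 14.1 ± 6.38 CPM (edgeR log2 fold change -2.50, SE 0.59, adjusted p = 0.0383), with overlap, since low 5 was below high 1, and the highest value, 197 CPM, in low 4. It passed in 3 of the 10 fits with 1 clone omitted (low 5, high 1 or high 4), and omitting any other gave adjusted p values up to 0.0856. Tradd (-0.69, adjusted p = 0.0648), the interleukin 1 receptor gene Il1r1 (1.16, adjusted p = 0.116) and Ltbr (0.43, adjusted p = 0.141) did not pass by edgeR, and DESeq2 called Tradd (adjusted p = 0.0239) and Il1r1 (0.0381). Of the 12 NF-kB subunits and kinases, 1 fell and 0 rose (median -0.17). Ikbkb, the kinase that releases NF-kB, fell from 134 ± 19.8 CPM to 74.2 ± 8.22 CPM without overlap (edgeR log2 fold change -0.85, SE 0.14, adjusted p = 0.0131). Nfkb2 (-0.76, adjusted p = 0.152), Nfkb1 (-0.54, adjusted p = 0.16) and Tab2 (0.32, adjusted p = 0.152) did not pass. Of the 6 falls in all lists, 4 (Ccl25, Il34, Tlr3 and Ikbkb) lie on chromosome 8, which holds 13 of the tested genes of these lists. With the chromosome shifts taken out per library, 2 of the 7 calls held, Kitl and Tnfsf9, and the values were -0.85, adjusted p = 0.124 for Ccl25, -2.39, adjusted p = 0.0617 for Il34, -1.97, adjusted p = 0.116 for Tlr3, -0.28, adjusted p = 0.27 for Ikbkb and -3.52, adjusted p = 0.0825 for Cxcl10 (edgeR log2 fold changes). Without low 2 and low 3, 1 gene of these lists was called, Kitl (2.00, adjusted p = 0.0395), and 56 genes in all, against 630 with them.

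The counts by list that follow stand against all tested genes, of which DESeq2 called 10.3% and limma-voom 5.3%, while 21.6% had an unadjusted p under 0.05 in edgeR. edgeR called 0 genes among 17 tested NF-kB feedback and target genes, where 14 were below and 3 above 0 (median -0.51, 3 at an unadjusted p under 0.05, 2 by DESeq2, 0 by limma-voom). The cyclooxygenase gene Ptgs2 was at -1.51 (adjusted p = 0.181), Traf1 at -1.40 (0.213) and Nod2 at -1.18 (0.164), and Nfkbia, the classic feedback inhibitor, at -0.26 (0.754, edgeR). The list headed C/EBP and AP-1 factors also holds Egr1, an early growth response factor that belongs to neither family, and edgeR called 0 of its 12 tested genes (5 at an unadjusted p under 0.05, 2 by DESeq2, 1 by limma-voom, median -0.71), with Egr1 at -1.55 (adjusted p = 0.0707), Jun at -1.20 (0.0724) and Cebpg at -0.51 (0.124, edgeR). Of 18 JAK-STAT3 genes 0 were called (4 at an unadjusted p under 0.05, 0 by DESeq2, 0 by limma-voom, median -0.06), with Jak1 at 0.57, Stat5a at 0.51 and Pim1 at -0.83. Among 13 regulators of cytokine mRNA decay 0 were called (4 at an unadjusted p under 0.05, 1 by DESeq2, 0 by limma-voom, median -0.18). Arid5a was at -1.09 (adjusted p = 0.0849), Hnrnpd at -0.54 and Tial1 at -0.34 (edgeR). Of 8 tested enzymes that shed or trim chemokines and their regulators 0 were called (4 at an unadjusted p under 0.05, 3 by DESeq2, 0 by limma-voom, median -0.38), with Rhbdf2, a partner of the sheddase Adam17, at -0.67, the sheddase inhibitor Timp3 at 0.94 and Rhbdf1 at -0.36 (log2, edgeR).

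**Figure D4:**
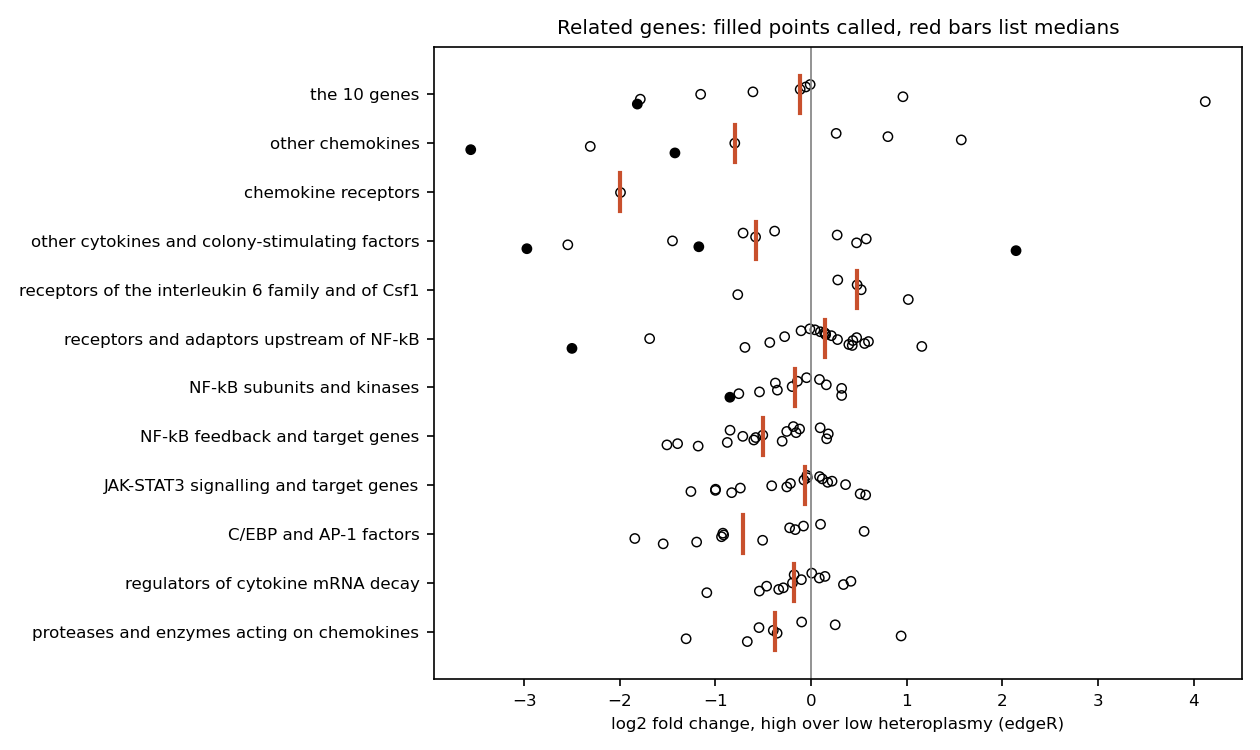
Log2 fold change of high over low heteroplasmy (x axis, edgeR) of each tested gene in the 10-gene set and in 11 related lists (y axis), with filled points for called genes and red bars for list medians. The medians of the 10 genes (-0.11) and of the JAK-STAT3 list (-0.06) are near 0, and the filled points are few in every list.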

How the data were processed

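RNA was measured in 10 libraries made with a poly(A) kit and a directional library kit per the labels' protocols, sequenced as 50 bp pairs. The authors' deposited raw table holds read counts per Ensembl gene with 1 column per library. Their deposited normalized table holds a signal, the counts divided by 1 size factor per library, which was checked and not used further. GRCm38 is the build, and STAR 2.7.8a, R 4.2.1 and DESeq2 1.36.0 are the tools, per the submitters' processing notes. How reads were counted, and whether by strand, is not stated there. Genes were named, placed and measured in exon length with GENCODE M21 (GRCm38), which left 195 identifiers without a name. Promoters came from RefSeq (GRCm38.p6).

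Counts were tested with edgeR 4.0.16 in R 4.3.3 (default expression filter by group, TMM, robust quasi-likelihood F-test, Benjamini-Hochberg over 12964 genes, threshold 0.05, two-sided), with the group as the only term. The SE is the log2 fold change divided by the root of F. Pairs were correlated on log2 CPM (prior count 2), with 100000 permutations, or all arrangements where called exact. The code was tested on simulated data: it called 40.0% of 2-fold and 82% of 4-fold changes and 0.0307% of unchanged genes among 13230 tested. Alternatives were other scalings and filters, DESeq2 1.42.0, limma-voom (limma 3.58.1), blocks, an offset per chromosome (median deviation of genes above a mean log2 CPM of 3), left-out libraries and a threshold of 0.1. The genes, the lists and the libraries left out as a pair were chosen with earlier results of these data known. From each related list, called genes and up to 3 further genes with the smallest p and a mean of at least 1 CPM were named; Lifr, Csf1r, Cxcr4, Nfkbia and the cluster neighbours were added by function or position, and a gene that the rule picks is not reported here. Intervals and limits for counts of 0 cover counting error only. Figures were drawn with matplotlib 3.10.9.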

Additional observations from a re-analysis of the deposited data

Results flagged for a closer look

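In 96 groups of 5 clones (the 10 genes and the related genes named), the highest or lowest clone stood apart from the other 4 in 10, by a gap of more than 0.71 of the group's range in CPM. For independent values with a normal spread, chance flags about 1 in 20 groups. CPM were not on a log scale and all groups came from the same 10 clones. The share flagged here therefore cannot be set against that rate. High 2 stood apart for Cxcl12 (452 CPM, the next clone at 117), Cxcl5 (1.63 CPM) and Ppbp (6.71 CPM). High 3 stood apart for Il11 (1.93 CPM) and Nod2 (7.41 CPM), and high 1 for Ccl5 (38.8 CPM). Among low clones, low 3 was far above the rest for Ccl7 (104 CPM) and low 4 for Ptgs2 (217 CPM). Low 5 was far below the rest for Jun (78.6 CPM) and Nod2 (4.35 CPM).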

How the results depend on the processing

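The number of called genes (630 of 12964) was 164 with an offset per chromosome, 1643 by DESeq2, 56 without low 2 and low 3, 1276 at a threshold of 0.1 and 232 to 821 with 1 library left out. Of the 10 chemokine and cytokine genes, 1 was called. The count was 0 with no filter, 0 with the sample code number as a block, 0 with the chromosome offset, 0 without low 2 and low 3, 0 to 1 with 1 library left out, 3 by DESeq2 and 3 at a threshold of 0.1. For the related genes the count of 7 was 2 with the offset, 26 by DESeq2, 1 without low 2 and low 3, 16 at a threshold of 0.1 and 4 to 17 with 1 library left out. No pair passed by Pearson correlation, 2 did with values centred within groups, and 0 to 1 did with 1 library left out. The cause of these changes was not tested.

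With the replicate number as a block, 2 of the 10 genes were called, Lif (-1.86, adjusted p = 0.0465) and Ccl2 (-1.77, adjusted p = 0.0333), with 8 related genes, 577 genes in all and 0 pairs. Same-numbered clones share a replicate number, and those of numbers 1, 2 and 5 also share a sample code number (7, 8 and 10). The deviations of same-numbered clones correlated at 0.50, 0.03, 0.01, 0.17, 0.25 for numbers 1 to 5. Of the 5 high clones, 2 correlated best with the low clone of their own number, numbers 1 and 5. The part of the code number in this was not tested.

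Signs turned for Ccl7, Il11 and Csf1, the genes with folds near 0. Ccl7 was at 0.38 with the replicate block, 0.28 by limma-voom and 1.32 without low 2 and low 3, and ran from -0.42 to 0.94 with 1 library left out. Il11 was at 0.25 without low 2 and low 3 and ran from -0.32 to 0.13 with 1 left out. Csf1 was at 0.018 with upper-quartile scaling, 0.0056 with no filter, 0.096 with the replicate block, 0.16 with the code block, 0.15 with the offset, 0.089 by limma-voom and 0.34 without low 2 and low 3, and ran from -0.18 to 0.22 with 1 left out. The other 6 tested genes of the set kept their sign in all alternatives that tested them. Depth limits Il6, Il11 and Cxcl5, which had at most 129, 51 and 38 counts in a library.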
